A study of Mus musculus with 6 samples.

Results

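The heparan sulphate 3-O-sulphotransferase family comprised 7 genes, Hs3st1, Hs3st2, Hs3st3a1, Hs3st3b1, Hs3st4, Hs3st5 and Hs3st6, out of 23420 gene symbols counted by RNA-seq in the mouse lacrimal gland bud at E14.5 of embryonic development. The members were taken by symbol, and the family itself was chosen from the change of several members between these same samples, so that their differences between the groups are given as descriptions with no test. The epithelium of the bud had been cut from frozen sections by laser capture. The 3 Control samples, titled WT, are given in the paper as Le-Cre, and the 3 Pea3 TKO samples carried Le-cre together with Pea3-/-, Ermfl/fl and Er81fl/fl. The paper also names Le-Cre mice heterozygous for all 3 alleles as controls in its experiments, and the labels do not say which were sequenced. All 6 came from E14.5 embryos of mixed background, and Le-Cre was shared by both groups. Le-Cre is a transgene active in the surface ectoderm of the eye and its derivatives, so that Erm (Etv5) and Er81 (Etv1) were deleted in that lineage, whereas Pea3 (Etv4) was missing from every tissue of the embryo. These 3 ETS transcription factors act downstream of FGF receptors, and the comparison asks what they control in the bud.

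Heparan sulphate is a chain of repeating sugars attached to core proteins at the cell surface and in the matrix, where it binds FGFs and their receptors. After the chain has been polymerised, sulphate is added at the N, 2-O, 6-O and 3-O positions by separate enzymes, all of which use the same activated sulphate donor, PAPS. 3-O-sulphation is the rarest of these modifications and is known to create binding sites for particular proteins. The product of Hs3st1 makes the site bound by antithrombin, and the products of Hs3st3a1 and Hs3st3b1 make a differently sulphated site, which herpes simplex virus uses for entry. In salivary glands, enzymes of the Hs3st3 type are known to be induced by FGF10 in the end buds.

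The sequences of the 7 genes show what the family shares. In the alignment of their coding sequences, the 60-base stretch with the most positions identical in all 7 genes held 31 such positions, printed here in capitals. It encodes the loop that holds the phosphosulphate of the donor. In GRCm38 (mm10, GENCODE annotation) the stretch lies within 1 coding exon of each gene. On the minus strand it occupies chr5:39615071-39615130 in Hs3st1 and chr11:63921423-63921482 in Hs3st3b1. On the plus strand it occupies chr7:121393066-121393125 in Hs3st2, chr11:64436478-64436537 in Hs3st3a1, chr7:123983745-123983804 in Hs3st4, chr10:36832735-36832794 in Hs3st5 and chr17:24753350-24753409 in Hs3st6.
Hs3st1: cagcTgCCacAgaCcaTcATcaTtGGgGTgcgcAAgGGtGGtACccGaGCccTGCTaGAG
Hs3st5: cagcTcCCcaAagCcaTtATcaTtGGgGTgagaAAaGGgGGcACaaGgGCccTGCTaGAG
Hs3st3a1: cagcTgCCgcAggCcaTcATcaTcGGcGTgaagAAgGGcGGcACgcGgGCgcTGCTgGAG
Hs3st3b1: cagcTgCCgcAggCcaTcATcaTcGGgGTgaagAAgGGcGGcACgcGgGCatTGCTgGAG
Hs3st6: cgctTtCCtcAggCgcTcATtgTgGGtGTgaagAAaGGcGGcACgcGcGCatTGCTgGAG
Hs3st2: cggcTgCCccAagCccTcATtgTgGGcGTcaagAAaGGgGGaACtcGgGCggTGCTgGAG
Hs3st4: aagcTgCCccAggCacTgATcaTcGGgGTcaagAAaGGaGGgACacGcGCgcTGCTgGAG

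Hs3st3a1 matched Hs3st3b1 at 57 of the 60 bases, and the other members matched it at 45 to 47. Over whole coding sequences this pair was 82.1% identical, and no other pair exceeded 66.7%. Hs3st1 and Hs3st5 were closest to each other, at 59.0%, and Hs3st6 was closest to Hs3st3b1, at 66.4%. The similarity of Hs3st3a1 and Hs3st3b1 limits how their counts can be told apart. Of all 100-base stretches of Hs3st3a1, the length of the reads, 302 or 7.86% also occur in Hs3st3b1, where they make up 6.28%. F930015N05Rik, annotated on the opposite strand, shares a further 31.2% of the stretches of Hs3st3a1. It had only 14 to 37 counts in Control samples against 437 to 816 for Hs3st3a1, and whether strand was used in counting is not given in the sources used here.

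Some features of the libraries touch the family. Total counts ranged from 14194775 to 17860140 a sample, at which 3 counts correspond to between 0.168 and 0.211 CPM, the unit of level used here, which is the count of a gene scaled to the size of its library. Pea3 TKO replicates 1 and 2 had almost no counts of Y-linked genes, in contrast to the other 4 libraries. They had the X-linked Xist at 106 and 32.5 CPM, against at most 0.436 CPM elsewhere. By these genes they read as female and the other 4 libraries, all Control samples among them, as male. Sex and group are therefore partly confounded. Pea3 TKO replicates 1 and 2 also had a summed level of 508 and 668 CPM over 11 mesenchymal markers, against 101 CPM in Pea3 TKO replicate 3 and 110, 113 and 202 CPM in the Control samples. Of these 11 markers, Lum and Dcn passed the test. The summed level of 10 surface epithelial markers, mostly keratins, was 560 to 1687 CPM in Control and 5541 to 8008 CPM in Pea3 TKO, with 9 of the 10 called higher, and it was highest among the Control samples in replicate 1. Control replicate 2 stood out for 5 lens markers, at 624 CPM against 97.9 to 181 CPM elsewhere. Of the lacrimal gland epithelial markers reported here, Sox9, Sox10 and Six2 were lower in Pea3 TKO, Pax6, Cdh1, Krt8 and Krt18 were higher, and Epcam did not pass the test. The part of these differences in the results for the family was not tested, and in bulk samples fewer cells of a type and less RNA per cell cannot be told apart. Labels do not say that the samples of a group came from separate embryos, so that the p-values given below measure only the spread between these samples.

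The targeted genes were lower in every Pea3 TKO sample. Etv4 was at 184, 129 and 140 CPM in Control and at 10.9, 19.1 and 28.4 CPM in Pea3 TKO. Etv5 was at 961, 1010 and 1202 CPM in Control and at 88.2, 152 and 177 CPM in Pea3 TKO. Etv1, the least abundant of them, was at 33.9, 28.7 and 32.9 CPM in Control and at 9.21, 9.37 and 9.98 CPM in Pea3 TKO. These counts sum over all exons of a gene, those outside the deleted parts included, so that they do not measure the deletion itself.

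Of the 7 members, Hs3st1, Hs3st3b1, Hs3st3a1 and Hs3st6 were lower in Pea3 TKO, Hs3st5 was higher, and Hs3st2 and Hs3st4 were not expressed at a level that could be compared. Summed over the family, the level fell 14.6-fold. It was at 377, 474 and 525 CPM in Control and at 26.4, 33.4 and 34.8 CPM in Pea3 TKO, with means of 459 ± 75.4 and 31.5 ± 4.47 CPM (SD, n = 3 each). The groups lay far apart, since the lowest Control sample exceeded the highest Pea3 TKO sample 10.8-fold. All 5 members that passed the filter on low counts were past an adjusted p of 0.05 in edgeR's quasi-likelihood test, where 25.0% of all 13087 genes tested were called in either direction. That 4 of them were lower stands beside 11.3% of all genes called lower, and that 1 was higher stands beside 13.6% called higher. The member that was higher, Hs3st5, passed the filter only through its Pea3 TKO counts, so that its direction was set by the filter. All 5 also had groups that did not overlap, as 43.9% of all genes did. These counts describe how the genes fared in the fit over all genes and are no test of the family, which was chosen from this contrast, so that nothing is read from them.

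**Figure D1:**
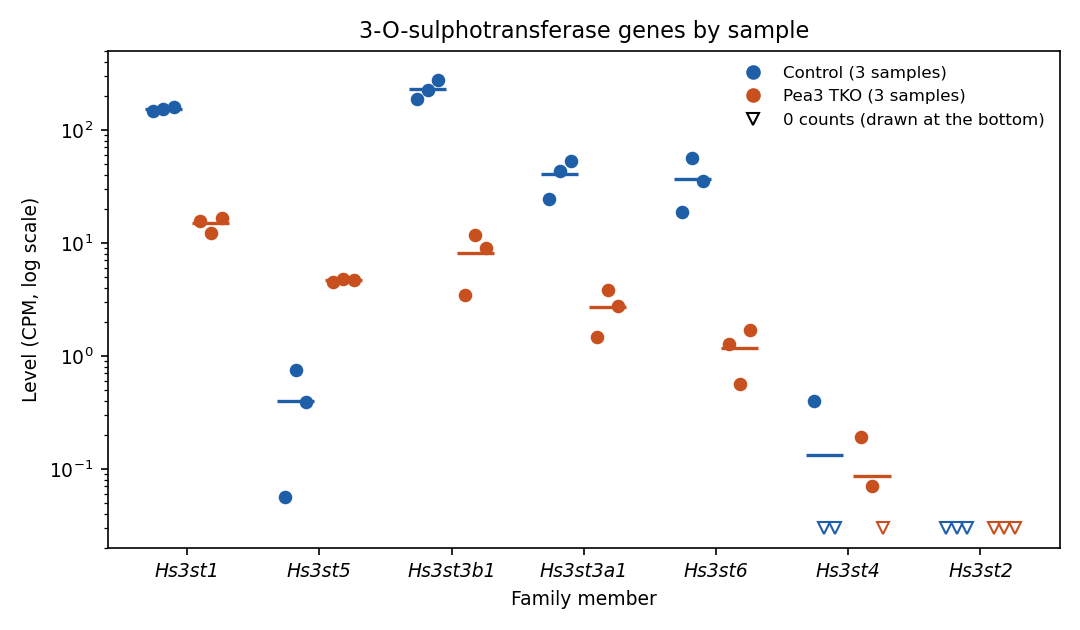
Level of each family member in each sample, in CPM on a log axis, with Control in blue, Pea3 TKO in orange, lines at the group means and open triangles for 0 counts. Hs3st1, Hs3st3b1, Hs3st3a1 and Hs3st6 sit lower in all 3 Pea3 TKO samples, Hs3st5 sits higher, and Hs3st4 and Hs3st2 sit at or near 0.

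Hs3st1 lies on chromosome 5 from 39613935 to 39755475 (minus strand). Its level was at 148, 151 and 159 CPM in Control, the narrowest relative spread of any member in that group. In Pea3 TKO it was at 15.6, 12.3 and 16.7 CPM. No sample came near the other group, and the difference was 10.3-fold, a log2 fold change of -3.36 (standard error, SE, 0.15).

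Hs3st3b1 lies on chromosome 11 from 63885792 to 63922290 (minus strand) and had the most counts of the family in Control. Its level was at 185, 223 and 278 CPM in Control and at 3.43, 11.7 and 8.99 CPM in Pea3 TKO. The Control value was lowest in replicate 1 and the Pea3 TKO value was also lowest in replicate 1, with the highest Pea3 TKO sample still far under the lowest Control sample. The difference was 28.4-fold, a log2 fold change of -4.83 (SE 0.37).

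Hs3st3a1, its closest relative, lies farther along chromosome 11 from 64435332 to 64522841 (plus strand). Its level was at 24.6, 43.2 and 53.1 CPM in Control and at 1.46, 3.85 and 2.76 CPM in Pea3 TKO. The samples took the same order as for Hs3st3b1 within each group, and the log2 fold change was -3.91 (SE 0.40). The level of Hs3st3b1 was 7.52, 5.16 and 5.25 times that of Hs3st3a1 in the Control samples and 2.35, 3.05 and 3.26 times in the Pea3 TKO samples, as ratios of CPM. These ratios did not overlap between the groups, but in Pea3 TKO they rest on 23, 55 and 47 counts of Hs3st3a1. By these values the larger fall was in Hs3st3b1. Whether the pair fell unequally was not tested, and the sequence that they share limits the comparison.

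Hs3st6, whose product makes the same type of site as those of the Hs3st3 pair, lies on chromosome 17 from 24752988 to 24758684 (plus strand). Its level was at 18.9, 56.6 and 34.9 CPM in Control, with an SD of 19.0 for a mean of 36.8, the widest relative spread of the members that were lower. The highest value was in Control replicate 2, the library high in lens markers, and the lowest was in Control replicate 1, the library high in surface epithelial markers. In Pea3 TKO it was at 1.27, 0.559 and 1.70 CPM, with 20, 8 and 29 counts behind these values. The difference was 31.2-fold, a log2 fold change of -4.94 (SE 0.50).

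Hs3st5, the closest relative of Hs3st1, went the other way. It lies on chromosome 10 from 36506814 to 36834397 (plus strand). It had 1, 12 and 6 counts in the Control samples, or 0.0564, 0.748 and 0.390 CPM, of which 1 sample lay under the level that 3 counts give. In Pea3 TKO it had 71, 69 and 79 counts, or 4.51, 4.82 and 4.64 CPM. The 3 Pea3 TKO values were close to each other and all above Control, 11.7-fold by the group means, with a log2 fold change of 3.54 (SE 0.80). With the Y-linked level as a covariate its log2 fold change was 3.49 and its adjusted p in edgeR, given as a description, was 0.0755, beyond the threshold.

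Hs3st2, on chromosome 7 from 121391859 to 121501770, had 0 counts in all 6 samples, which allows a level of up to 0.168 to 0.211 CPM. Hs3st4, also on chromosome 7, from 123982869 to 124398989, had 7, 0 and 0 counts in Control and 3, 1 and 0 counts in Pea3 TKO. At this depth neither member could be compared between the groups.

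Pea3 TKO replicate 3 was the mutant library with Y-linked counts like the Control samples and with mesenchymal markers at their level. Its levels of Hs3st3b1, Hs3st3a1 and Hs3st5 lay between those of the other mutant libraries. Its levels of Hs3st1 and Hs3st6 were the highest of the mutant libraries. Against the Control mean, this library alone was 9.15-fold lower for Hs3st1, 25.5-fold lower for Hs3st3b1, 14.6-fold lower for Hs3st3a1 and 21.6-fold lower for Hs3st6. It was 11.7-fold higher for Hs3st5 and 13.2-fold lower for the family total. These values come from a single library, and the part of sex or of mesenchymal cells in the changes of the family was not tested. Pea3 TKO replicate 1, which had the lowest Etv4 and Etv5 levels, also had the lowest levels of Hs3st3b1 and Hs3st3a1, but not of Hs3st1 or Hs3st6.

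Among all 13087 genes tested, a log2 fold change under -3 was reached by 105 genes, or 0.802%. By the size of the decrease, Hs3st6 stood at place 37, Hs3st3b1 at 43, Hs3st3a1 at 60 and Hs3st1 at 81. Ordered by mean Control CPM, Hs3st3b1 stood at place 926 and Hs3st1 at 1674, in the upper part of the list. Hs3st3a1 and Hs3st6 stood at 5918 and 6227, near its middle, and Hs3st5 stood at 12823, close to its end.

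Since the transcripts of the members differ in length, levels were compared between genes as CPM per kilobase (kb) of the longest coding transcript. On this scale Hs3st1 came first in Control, at 90.5 ± 3.36 CPM per kb (SD, n = 3, as for the values that follow). Hs3st3b1 came next at 46.6 ± 9.52, with all samples under those of Hs3st1. Hs3st6 followed at 30.2 ± 15.5, and its samples, from 15.5 to 46.4, overlapped those of Hs3st3b1, from 37.7 to 56.7, so that their order was not set beyond the spread. Hs3st3a1 was at 10.2 ± 3.66 and Hs3st5 at 0.129 ± 0.112, each with every sample under those of the member before it. In counts without length Hs3st3b1 came before Hs3st1 and Hs3st3a1 before Hs3st6, because the transcript of Hs3st3b1 has 4911 bases and that of Hs3st3a1 3939, against 1686 for Hs3st1 and 1220 for Hs3st6.

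In Pea3 TKO Hs3st1 was again first, at 8.81 ± 1.35 CPM per kb, well above the rest. Hs3st3b1 at 1.64 ± 0.863, Hs3st5 at 1.51 ± 0.0516, Hs3st6 at 0.965 ± 0.473 and Hs3st3a1 at 0.683 ± 0.303 followed. The samples of Hs3st3b1 ranged from 0.698 to 2.39 and overlapped those of all 3 members after it. Hs3st5 had thus moved from last of the 5 into the middle of the order, among the members that had fallen to its level.

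The make-up of the family total moved with these changes. Of the 6690 to 8081 family counts in a Control sample, Hs3st3b1 took 49.7% ± 3.04 (SD, n = 3), and of the 416 to 592 family counts in a Pea3 TKO sample it took 24.7% ± 11.2. The share of Hs3st1 was 33.8% ± 4.78 in Control and 47.9% ± 11.0 in Pea3 TKO. For Hs3st1 the groups overlapped, with 39.2, 31.9 and 30.2% in Control and 58.9, 36.9 and 48.0% in Pea3 TKO. Hs3st3a1 kept a similar share, 8.58% ± 1.84 and 8.33% ± 3.02. The share of Hs3st6 was 7.86% ± 3.63 in Control and 3.79% ± 1.83 in Pea3 TKO.

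The clearest shift was in Hs3st5, which took 0.0149, 0.158 and 0.0742% of family counts in Control and 17.1, 14.47 and 13.3% in Pea3 TKO. The exact Clopper-Pearson 95% intervals, which cover counting error only, ended at 0.275% in Control at most and began at 10.7% in Pea3 TKO at least. They leave out the spread between samples, and the family was chosen from this contrast, so that the gap between them is no test. A share rises when the rest of the family falls, so that these shares do not measure the level of Hs3st5, which is given above. Taken as a pair, Hs3st1 and Hs3st5 held 33.8% ± 4.72 of family counts in Control and 62.9% ± 12.4 in Pea3 TKO. Hs3st3a1, Hs3st3b1 and Hs3st6 together held 66.1% ± 4.78 and 36.8% ± 12.7. In summed level the pair was 7.84-fold lower in Pea3 TKO, from 153 ± 5.77 to 19.5 ± 2.15 CPM. The other 3 genes were 25.7-fold lower, from 306 ± 70.2 to 11.9 ± 5.17 CPM.

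**Figure D2:**
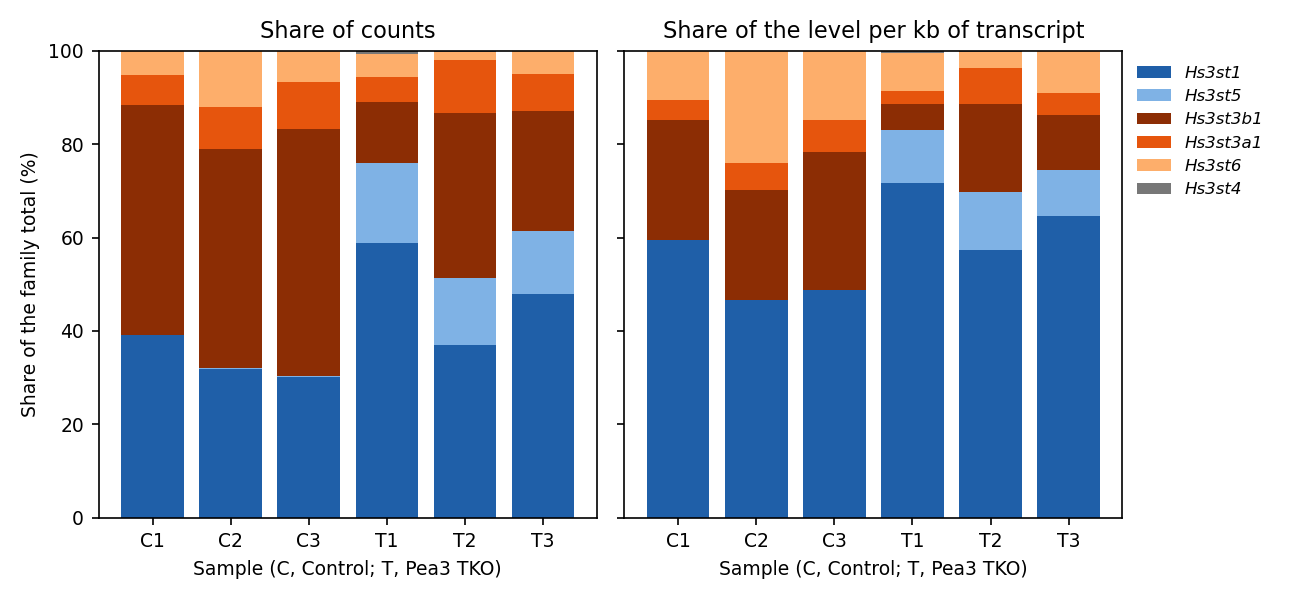
Share of each member in the family total of each sample, in percent of counts (left) and of the level per kb of transcript (right), for Control (C1 to C3) and Pea3 TKO (T1 to T3). The Hs3st5 segment is near 0 in Control and takes 17.1, 14.47 and 13.3% of counts in Pea3 TKO, while the Hs3st3b1 segment narrows.

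The 3-O enzymes were set beside those that sulphate the other positions, whose genes were not used to choose the family. The 3-O family was chosen from its change in these samples, so that the contrast between the classes is a description and no test. The summed level of the Ndst genes, which add N-sulphate, was 221 ± 27.6 CPM in Control and 203 ± 22.8 CPM in Pea3 TKO. Hs2st1, the sole 2-O enzyme gene, was at 102 ± 15.4 and 83.0 ± 5.11 CPM. The Hs6st genes, which add 6-O-sulphate, summed to 243 ± 20.03 and 224 ± 36.0 CPM. In all 3 of these sums the groups overlapped, with log2 ratios of -0.12, -0.29 and -0.12 against -3.86 for the 3-O enzymes. Per kb of transcript, the 3-O genes made up 59.9% of the summed level of all these sulphotransferase genes in Control and 10.9% in Pea3 TKO.

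**Figure D3:**
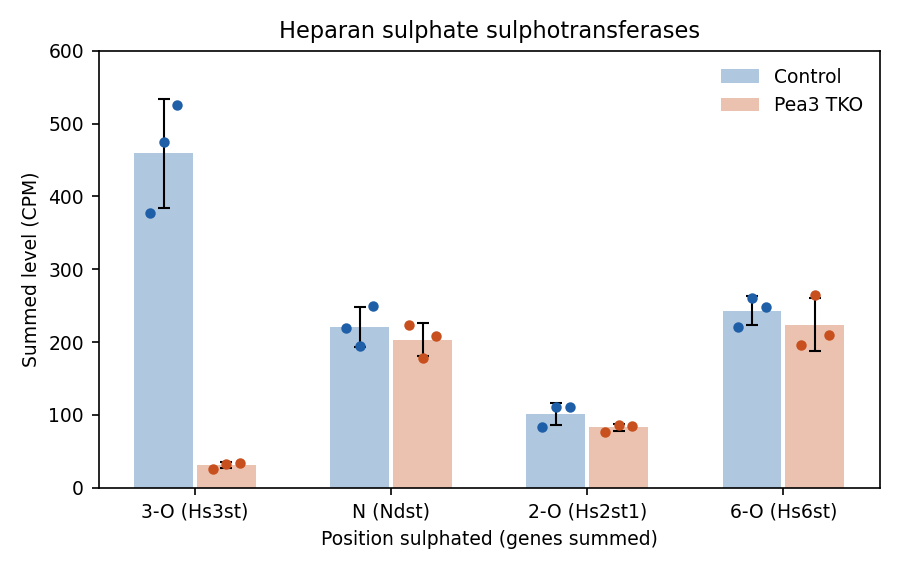
Summed level in CPM of the genes for each class of heparan sulphate sulphotransferase, with bars at the group mean, error bars of 1 SD and a point for each of 3 samples a group. The 3-O class goes from 459 to 31.5 CPM, and the points of both groups overlap in the other classes.

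Within the 6-O class the genes moved apart. Hs6st2 fell from 62.9, 95.3 and 81.1 CPM to 19.0, 31.1 and 32.9 CPM, a log2 fold change of -1.53 (SE 0.23, adjusted p = 0.00172, edgeR). Hs6st1, the more abundant, was at 158, 165 and 167 CPM in Control and at 178, 233 and 177 CPM in Pea3 TKO, where the log2 fold change of 0.26 did not pass the test (adjusted p = 0.175, edgeR). Their sum therefore hid a fall of Hs6st2, and the call for Hs6st2 was lost with the Y-linked covariate (adjusted p = 0.0561, edgeR). Hs6st2 lies on the X chromosome, and sex and group are partly confounded in these samples.

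The other heparan sulphate genes were counted over 6 lists by role, 42 genes of which 37 passed the filter. Of these 37 genes, 4 rose, 6 fell and 27 did not pass the test, which is 10 called beside the 25.0% called over all genes. Their median log2 fold change was -0.11, and that of all genes tested was 0.0094. The 6 genes for the linker that joins the chain to its core protein gave no call by edgeR, with 1, Xylt2, at an unadjusted p under 0.05 and called by DESeq2. Among 5 polymerisation genes, Ext1, a subunit of the chain polymerase, fell from 89.9, 106 and 110 CPM to 43.2, 48.0 and 38.2 CPM (log2 fold change -1.24, SE 0.15, adjusted p = 0.000493). Ext2, which encodes its partner subunit, was at 251 ± 23.1 and 233 ± 21.3 CPM (SD, n = 3 each) and did not pass the test.

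Genes that supply the sulphate donor included 2 that rose and none that fell among 6. Papss2, a synthase of PAPS, was at 16.5, 4.74 and 3.12 CPM in Control and at 84.4, 67.1 and 41.0 CPM in Pea3 TKO (log2 fold change 2.97, SE 0.54, adjusted p = 0.00424, edgeR). Its paralog Papss1 stayed the more abundant, at 312 ± 15.4 and 247 ± 20.8 CPM (SD, n = 3 each), and did not pass the test (adjusted p = 0.0527, edgeR). Slc35b3, a transporter of PAPS into the Golgi, rose from 22.8 ± 2.26 to 47.4 ± 3.79 CPM, a log2 fold change of 1.05. Control replicate 1, the highest Control sample for Papss2, was also the one highest in surface epithelial markers, and the call for Papss2 was lost with the Y-linked covariate (adjusted p = 0.0701, edgeR).

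Enzymes that act on finished chains went in both directions. Sulf2, which removes 6-O-sulphate outside the cell, fell from 344 ± 15.01 to 246 ± 23.6 CPM, a log2 fold change of -0.49 (adjusted p = 0.0775 with the Y-linked covariate, edgeR, where its call was lost). Sulf1, with the same activity, was at 15.5, 5.30 and 5.14 CPM in Control and at 41.1, 69.2 and 18.9 CPM in Pea3 TKO, for a log2 fold change of 2.31. Its levels were highest in the mutant libraries with raised mesenchymal markers, and with the Y-linked covariate, which separates the same libraries, its log2 fold change was 1.14 and its call was lost (adjusted p = 0.307, edgeR). The calls of Sulf1 and Sulf2 were also lost without Control replicate 2 (adjusted p of 0.0531 and 0.0569, edgeR), and that of Sulf1 without Pea3 TKO replicate 2 (adjusted p = 0.052, edgeR).

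Among 11 core protein genes, Sdc1 rose and Sdc3, Gpc3 and Gpc6 fell. Sdc1, a syndecan of epithelial cells, went from 408, 322 and 322 CPM to 647, 638 and 566 CPM, a log2 fold change of 0.81. Sdc3, also a syndecan, went from 106 ± 8.30 to 36.0 ± 6.48 CPM, a log2 fold change of -1.56. Gpc3, an X-linked glypican held in the membrane by a lipid anchor, went from 577 ± 54.7 to 282 ± 62.3 CPM, a log2 fold change of -1.03. Gpc6 had a log2 fold change of -0.74 with groups that overlapped, and its call was lost without Control replicate 2 or 3 or Pea3 TKO replicate 1 or 2, with an adjusted p of 0.101 to 0.132 in edgeR, and with the Y-linked covariate (adjusted p = 0.375).

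**Figure D4:**
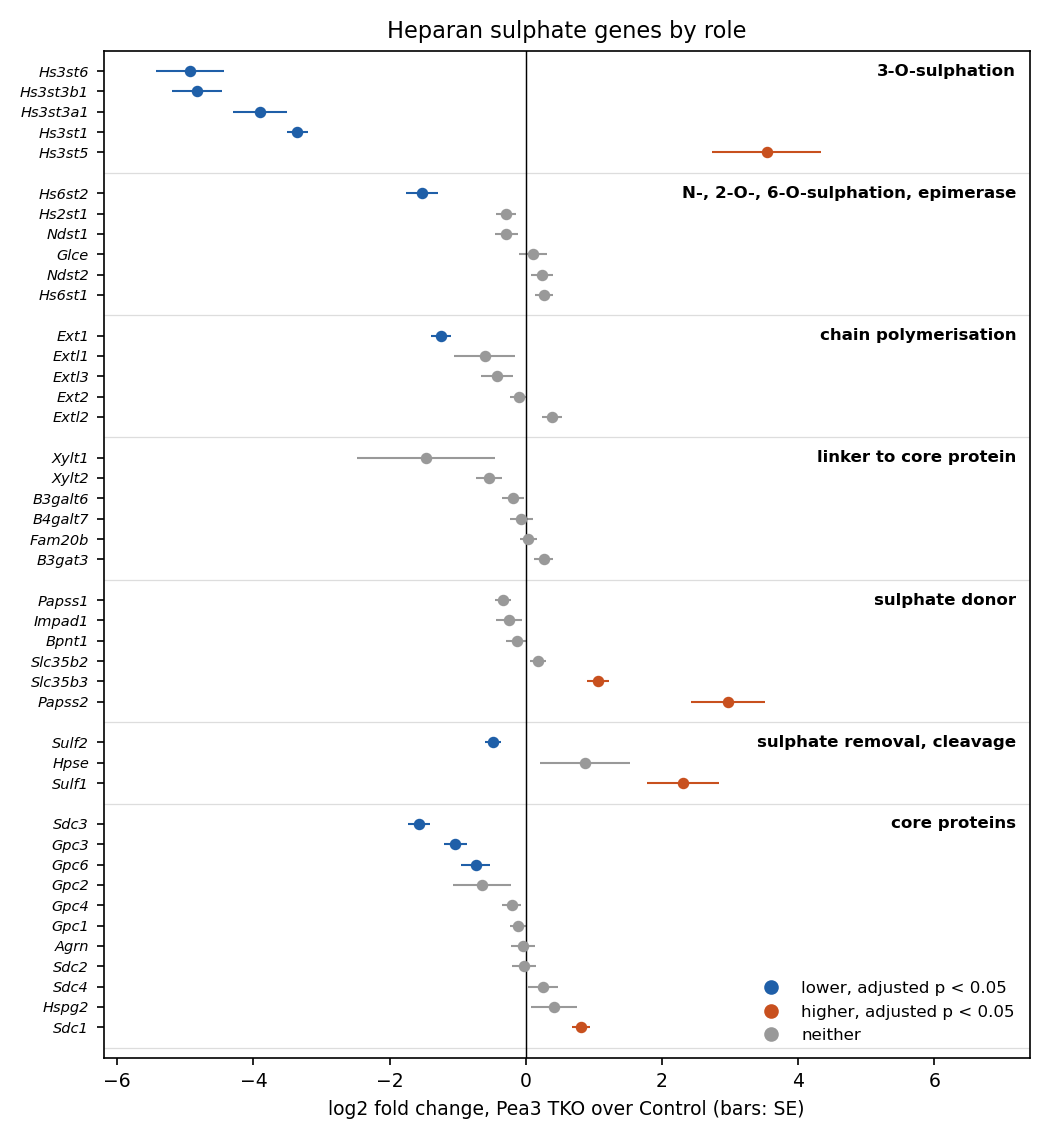
Log2 fold change of Pea3 TKO over Control for each tested heparan sulphate gene, grouped by role, with bars of 1 standard error, blue for lower and orange for higher at an adjusted p of 0.05. The members of the 3-O class, which was chosen from this contrast, lie between -4.94 and 3.54, and no gene of the other roles is under -1.56 or above 2.97.

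Genes for FGF signaling, which heparan sulphate assists, were listed in the same way. Fgfr1, an FGF receptor, fell from 149, 196 and 227 CPM to 48.9, 39.3 and 47.5 CPM (log2 fold change -2.07, SE 0.17, adjusted p = 7.3e-05, edgeR). Fgf1 fell from 39.4 ± 2.86 to 6.84 ± 3.36 CPM, a log2 fold change of -2.52. Fgfr2, whose epithelial form is the receptor for FGF10, was at 259, 234 and 238 CPM in Control and at 388, 415 and 258 CPM in Pea3 TKO, groups that overlapped (log2 fold change 0.54, adjusted p = 0.043, edgeR). Fgfr3 had a log2 fold change of 2.45, also with overlapping groups. Both receptor calls were lost with the Y-linked covariate, where the log2 fold changes were 0.0865 for Fgfr2 and 1.04 for Fgfr3. Without any 1 of 5 samples, all but Pea3 TKO replicate 3, the adjusted p of Fgfr2 was 0.0512 to 0.154 in edgeR. Without Control replicate 2 or 3 or Pea3 TKO replicate 1 or 2, that of Fgfr3 was 0.0852 to 0.127. Fgf10 itself, a product of the mesenchyme, did not pass the filter, at 0.225, 0.0623 and 1.11 CPM in Control and 0 counts in every Pea3 TKO sample, and neither did Fgfr4, Fgf3, Fgf7 or Fgf22. The list of proteins that bind 3-O-sulphated chains held Fgfr1, which fell as given above, antithrombin and neuropilin 1. Antithrombin (Serpinc1) did not pass the filter, and Nrp1, the gene of neuropilin 1, at 0.81 to 2.99 CPM in Control and 0.411 to 3.87 CPM in Pea3 TKO, did not pass the test.

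Hs3st3b1 and Hs3st3a1 are neighbours, and the genes around them were measured to describe the region. Their start sites lie 513 kb apart, with Cox10, which encodes an assembly factor of cytochrome c oxidase, as the only other protein-coding gene between them. Cox10 fell from 66.6, 77.3 and 85.1 CPM to 33.9, 41.4 and 47.4 CPM, a log2 fold change of -0.90 (SE 0.17). 2810001G20Rik, a noncoding transcript that starts beside Cox10 on the opposite strand, fell from 27.1, 30.0 and 27.7 CPM to 10.5, 11.0 and 11.4 CPM, a log2 fold change of -1.36 (SE 0.19). Beyond Hs3st3a1, Elac2, a tRNA-processing enzyme, fell from 82.9 ± 1.68 to 55.5 ± 7.63 CPM, a log2 fold change of -0.58. These 3 falls were all smaller than that of either member, and F930015N05Rik, which overlaps the start of Hs3st3a1, did not pass the test except without Pea3 TKO replicate 3 (adjusted p = 0.0233, edgeR), the only mutant library in which it had counts. The calls of Cox10 and Elac2 were lost with the Y-linked covariate (adjusted p of 0.115 and 0.279, edgeR), and that of Elac2 also without Control replicate 3 (0.0524) or Pea3 TKO replicate 2 (0.0623).

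Within 3000 kb of the Hs3st3b1 start site 37 genes were tested, of which 35 were not members. Of these 35 genes 4 were lower and 2 higher, beside 11.3% and 13.6% over all genes. The 4 were the 3 genes just named and Aldh3a2, an aldehyde dehydrogenase. On the side of Hs3st3b1 away from Hs3st3a1, the nearest gene tested, Pmp22, lay 793 kb off, had a log2 fold change of 1.37 and did not pass the test, though it did by DESeq2 (adjusted p = 0.0167) and, in edgeR, with the replicate block (0.0286), with no low-count filter (0.0401) and without Control replicate 1 (0.00219).

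**Figure D5:**
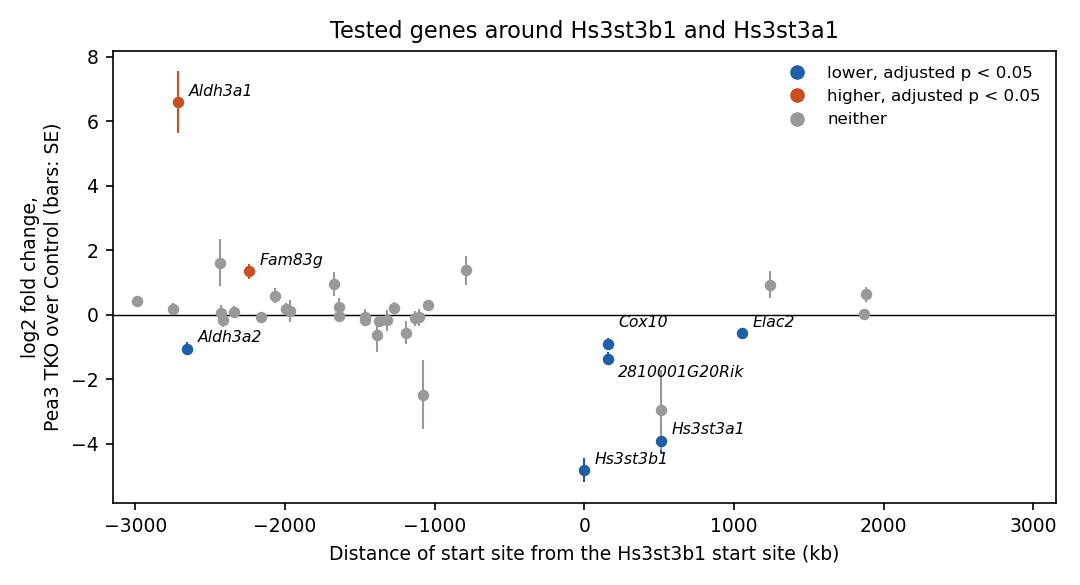
Log2 fold change of each of 37 tested genes by the distance of its start site from that of Hs3st3b1, in kb, with bars of 1 standard error and names for the genes called. Hs3st3b1 and Hs3st3a1, 513 kb apart, lie at -4.83 and -3.91, and the called genes between and beyond them lie at -0.90, -1.36 and -0.58.

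Neighbours were counted for the other members too. Taking the 3 nearest tested genes on each side of each of the 5 tested members gave 27 genes outside the family, of which 4 fell, 3 rose and 20 did not pass the test, 7 called beside the 25.0% over all genes. Around Hs3st6, with neighbours within 130 kb on both sides, none of 6 was called by edgeR or by DESeq2, and 0 had an unadjusted p under 0.05 in edgeR. The log2 fold changes of these 6 ranged from -0.39 for Rps2, a ribosomal protein gene, to 0.47 for Msrb1, and Rps2 was called without Control replicate 1 (adjusted p = 0.0133, edgeR). The neighbours of Hs3st1 lay 945 kb or more away and included Nkx3-2, a homeobox factor, which had 0 counts in Control and 10 to 21 in Pea3 TKO. Nkx3-2 is among the 3 that rose, but it passed the filter only through Pea3 TKO, so that its direction was set by the filter. Of the neighbours of Hs3st5, Hdac2 lay 468 kb, Marcks 627 kb and Frk 2023 kb away by gene start. Marcks, a substrate of protein kinase C, rose from 229 ± 6.85 to 489 ± 34.3 CPM. Frk, a tyrosine kinase, rose from 27.8 ± 8.34 to 83.4 ± 30.03 CPM. Hdac2, a histone deacetylase, fell from 576 ± 32.8 to 433 ± 40.1 CPM, a call that was lost when any sample except Pea3 TKO replicate 3 was left out (adjusted p of 0.054 to 0.0794, edgeR) and with the replicate block (0.0594). The calls of Nkx3-2, Frk and Hdac2 were lost with the Y-linked covariate, and that of Nkx3-2 also without Pea3 TKO replicate 2 (adjusted p = 0.0652, edgeR).

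Promoters were examined because the ETS factors deleted here recognise a core motif, GGAA, and because 4 members fell together. RefSeq windows from 250 bases before to 50 bases after the start were matched for 6 of the 7 members, all but Hs3st6. On both strands, GGAA occurred 4 times in Hs3st3b1, 1 time in Hs3st1 and 0 times in Hs3st3a1. It occurred 5 times in Hs3st5, which was higher, and 3 times in Hs3st4 and 2 times in Hs3st2, which could not be compared. Of all 32851 RefSeq promoter windows 96.0% held it, with a median of 3 matches and quartiles of 2 and 5. The longer motifs CCGGAA and CCGGAAGT, which contain it, were in 14.9% and 3.89% of all windows and in none of the members' windows. These counts were not tested against the direction of change, and sequence beyond the windows, where such factors may also bind, was not examined. The sequences just before the start of Hs3st1 and Hs3st3b1, the members with most of the family's counts, are printed with GGAA or its reverse complement TTCC in capitals, from chr5:39644635-39644881 and chr11:63922291-63922534 of GRCm38.p6, both 5′ to 3′ on the minus strand. For Hs3st1 this is the RefSeq start, which lies within the GENCODE span given above, since a longer annotated transcript starts farther upstream, and gene counts do not show which start was used.
Hs3st1: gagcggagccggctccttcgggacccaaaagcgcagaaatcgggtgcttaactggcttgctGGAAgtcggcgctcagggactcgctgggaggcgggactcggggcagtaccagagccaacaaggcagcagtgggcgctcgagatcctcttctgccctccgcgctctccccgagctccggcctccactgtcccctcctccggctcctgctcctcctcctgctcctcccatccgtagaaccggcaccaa
Hs3st3b1: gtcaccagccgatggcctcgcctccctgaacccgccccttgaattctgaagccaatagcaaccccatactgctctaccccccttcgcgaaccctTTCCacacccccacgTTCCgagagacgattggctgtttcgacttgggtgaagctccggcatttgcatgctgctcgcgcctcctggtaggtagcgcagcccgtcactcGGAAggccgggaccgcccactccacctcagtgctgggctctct

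The printed stretch of Hs3st1 holds 1 match, 189 bases before the start, and that of Hs3st3b1 holds 3, at 156, 141 and 49 bases before the start, its remaining match spanning a part not printed. A match describes these letters only, not a bound site.

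For each tested member, the genes with the most similar pattern were found as those with the smallest root mean square difference of centred log2(CPM + 1) over the 6 samples, among 7988 or 7989 genes with a mean Control level of at least 20 CPM. Nearest to Hs3st1 was Socs2, an inhibitor of cytokine signaling, at a difference of 0.10, with 53.3, 57.5 and 61.2 CPM in Control and 6.41, 3.99 and 6.40 CPM in Pea3 TKO, followed by Cd177 and Fam150b. Nearest to Hs3st3a1 was Sema3b, a secreted semaphorin, at 0.31, which was also lowest of the Control samples in replicate 1, with 235, 499 and 677 CPM, followed by Fam150b and BC006965. Nearest to Hs3st3b1 were Cacna2d3, a calcium channel subunit, Tmem59l and Fzd9, a Wnt receptor, at 0.43 to 0.49, and nearest to Hs3st6 were Atp2a3, a calcium pump, Fam150b and Fzd9, at 0.35 to 0.47. Fam150b, the gene of a secreted ligand of the Alk receptor, was in the lists of 3 members. The 1 CPM added before the logarithm understates the falls of Hs3st6 and Hs3st3a1, at 1.18 and 2.69 CPM in Pea3 TKO. Their likeness to Fam150b, at 614 CPM in Control and 54.7 CPM in Pea3 TKO, therefore holds on that scale only.

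Nearest to Hs3st5 was Jag1, a Notch ligand, at a difference of 0.13, with 30.7, 44.9 and 32.8 CPM in Control and 176, 159 and 167 CPM in Pea3 TKO. Notch2, a Notch receptor, at 0.28, and H2-D1 at 0.29 followed. The pseudocount of 1 CPM understates the change of Hs3st5, whose Control level was under 1 CPM, so that its likeness to these genes holds on that scale only.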

How the data were processed

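The deposited tables hold raw read counts per gene symbol, 1 table a sample. According to the submitters' processing notes the authors used bcl2fastq 2.17, STAR 2.5.2b on mm10, featureCounts 1.5.0-p3 and DESeq. The labels name both the Ovation RNA-seq System V2, an amplification kit whose bias the counts would keep, and a poly-A TruSeq preparation. Which of them was used for these samples is unclear. The annotation and strand setting used for counting are not given in the sources used here.

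Counts were filtered with filterByExpr, scaled by TMM and tested with edgeR 4.0.16 (R 4.3.3), group as the only term, with Benjamini-Hochberg adjustment over 13087 genes and a threshold of 0.05. CPM are TMM-scaled. On simulated data for this comparison, run on 13087 genes, 83% of 4-fold and 54% of 2-fold changes were called. Replicates of a group differed by more than sampling noise (chi-square per degree of freedom at least 15.5). Lengths, coordinates and sequences came from GENCODE and RefSeq on GRCm38, aligned with mafft 7.526.

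The members and lists were chosen with earlier results of these data known. Named genes were the members, the targeted genes, genes called in the heparan sulphate lists, the FGF and binding-protein lists, the 3 nearest tested genes on each side and the 3 most alike genes. Of the lacrimal gland marker list, 1 gene is not reported here. Marker lists for endothelium, blood, immune cells, muscle and nerve summed to at most 17.1 CPM in any sample. Alternatives were other scalings and filters, DESeq2 1.42.0, a replicate block, a Y-linked covariate and leaving out each sample. Deviations from the group mean had correlations of 0.123, -0.039 and -0.013 between same-numbered samples and of -0.098 to 0.129 between the others. These correlations cannot settle whether the numbers pair the samples, which the main fit treated as unpaired.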

Additional observations from a re-analysis of the deposited data

How the results depend on the processing

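Under 13 alternatives the 5 tested members had log2 fold changes from -3.45 to -3.19 for Hs3st1, -4.24 to -3.61 for Hs3st3a1, -5.19 to -4.47 for Hs3st3b1, -5.30 to -4.46 for Hs3st6 and 3.01 to 4.37 for Hs3st5, values given as descriptions since the family was chosen from this contrast. The Y-linked covariate gave 6 calls in place of 10 among the other heparan sulphate genes, 2 in place of 7 among the neighbours and 846 in place of 3268 over all genes, and its cause was not tested. Leaving out 1 sample gave 4 (without Pea3 TKO replicate 2) to 9 calls among the neighbours and 1948 to 3344 over all genes, fewest without Control replicate 3, Control replicate 2 (1963) or Pea3 TKO replicate 2 (2072). The replicate block gave 3191 calls over all genes and 5 among the members. Per kb of transcript the shares of the family total in Control and Pea3 TKO were 51.6 and 64.6% for Hs3st1, 26.2 and 12.1% for Hs3st3b1, 5.64 and 5.04% for Hs3st3a1 and 16.5 and 6.94% for Hs3st6, and 11.2% for Hs3st5 in Pea3 TKO. Counts without length left 1 of 5 members in its place in the Control order. Counted as 1 entry, Hs3st3a1 and Hs3st3b1 held 58.3% of family counts in Control and 33.0% in Pea3 TKO. None of the results recomputed changed direction on losing or gaining a call. The family total without 2 of the mutant libraries and an order by the union of exons were added after seeing the data. With 3 samples a group, an exact permutation test could not go below 0.10, and Hs3st2, Hs3st4 and the Control level of Hs3st5 were limited by depth.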
